A study of Saccharomyces cerevisiae with 18 samples.

Results

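The genes described here encode the proteins of the cytosolic ribosome of *Saccharomyces cerevisiae*. They were taken as every gene whose standard symbol is RPL (large subunit) or RPS (small subunit) followed by digits and an optional A or B, which gave 132 of the 5830 genes of the table. Of these, 76 were large-subunit genes and 56 were small-subunit genes. A and B copies formed 57 paralog pairs (114 genes), and 18 genes had no paralog, so that 75 proteins were covered. The acidic stalk proteins, whose symbols begin with RPP, fell outside this choice.

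Ribosomal protein (RP) genes are among the most heavily transcribed genes of growing yeast, and their mRNAs rise and fall together with nutrient supply. Rap1 binds most of their promoters and recruits Fhl1 and Ifh1, while TOR signaling, Sfp1 and the kinase Sch9 tune their output. Most are duplicated, a legacy of an ancient genome duplication, and the A and B copies often encode the same or nearly the same protein, so that the balance between them can be read as a ratio within a library.

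Poly(A) RNA was sequenced from 6 strains, with 3 independent cultures of each grown in YPD (rich medium). ISW1a is a chromatin remodeler that pairs the ATPase Isw1 with Ioc3, and Yaf9 is shared by the NuA4 acetyltransferase and the SWR1 complex, which deposits the histone variant H2A.Z. The strains were *ioc3*Δ, which lacks Ioc3, *ioc3*Δ*cHLB*, in which part of the DNA-binding HLB domain of Ioc3 is deleted, *yaf9*Δ, which lacks Yaf9, a double mutant with both deletions (*ioc3*Δ *yaf9*Δ), a double mutant with the truncation and the deletion (*ioc3*Δ*cHLB yaf9*Δ), and wild type (WT ISW1a). All 6 carried a FLAG tag according to the labels, which also name BY4742 as the parent. Nothing in the sources used here states how many clones stood behind each strain, so the p-values measure the spread between cultures. Values are CPM, read counts that the authors scaled to the effective size of each library. Libraries held 5145170 to 10192972 reads counted in the genes of the table, and every RP gene had at least 180 reads in every library.

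The deleted genes matched the strain labels. *IOC3* had 2 reads in the *ioc3*Δ libraries and 1 read in the *ioc3*Δ *yaf9*Δ libraries, against 1426 reads in the wild type libraries. *YAF9* had 3 reads in *yaf9*Δ and 0 reads in each double mutant, against 803 reads in wild type. The mating type and the auxotrophic markers *LEU2*, *LYS2* and *URA3* went against the BY4742 label, which describes a MATα strain mutated in *HIS3*, *LEU2*, *LYS2* and *URA3*. The a-specific receptor gene *STE2* lay at 669.6 to 1054 CPM over the 18 libraries, whereas the α-factor gene *MF(ALPHA)1* lay at 0.512 to 4.20 CPM and the α-specific receptor gene *STE3* at 0.469 to 14.04 CPM. *URA3* (113 to 209 CPM), *LYS2* (156 to 228 CPM) and *LEU2* (42.8 to 205 CPM) were all transcribed. *HIS3* had reads too (8.29 to 18.5 CPM), but a partly deleted gene can still give reads, so it is not set against the label. These patterns held for wild type and mutants alike, so the strains are named below by their IOC3 and YAF9 alleles only.

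How well a pair of paralogs can be told apart depends on their sequences, because reads were 76 bases long. Of the 57 pairs, 53 had equal coding length and 21 encoded the same protein, and identity over the exons ran from 78.9% to 99.4%. In 45 pairs under 20% of all 76-base windows of the A copy, and likewise of the B copy, also occurred in the paralog, and these pairs are called distinct below. No RP gene shared exon bases with another annotated gene. The last 76 coding bases of 4 pairs are shown because these pairs span the range from well separated to nearly inseparable. They are read from the R64 (sacCer3) genome on the strand of each gene, end with the stop codon, and have in capitals each base at which the paralogs differ.
RPS22A: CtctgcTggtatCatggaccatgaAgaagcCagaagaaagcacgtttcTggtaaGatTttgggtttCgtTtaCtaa
RPS22B: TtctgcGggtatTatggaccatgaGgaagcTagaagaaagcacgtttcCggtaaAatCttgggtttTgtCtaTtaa
RPS28A: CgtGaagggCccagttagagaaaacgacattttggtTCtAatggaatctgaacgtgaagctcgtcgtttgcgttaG
RPS28B: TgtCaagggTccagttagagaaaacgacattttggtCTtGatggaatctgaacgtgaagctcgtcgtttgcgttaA
RPL7A: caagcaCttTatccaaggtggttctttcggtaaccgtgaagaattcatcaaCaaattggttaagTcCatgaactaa
RPL7B: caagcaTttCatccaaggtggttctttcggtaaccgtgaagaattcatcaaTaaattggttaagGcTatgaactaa
RPL35A: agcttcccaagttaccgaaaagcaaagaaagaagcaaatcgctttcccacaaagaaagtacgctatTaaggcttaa
RPL35B: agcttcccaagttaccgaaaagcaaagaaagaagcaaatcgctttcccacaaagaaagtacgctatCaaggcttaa
RPS22A (X:74910-74985, minus strand) and RPS22B (XII:857242-857317, plus strand) differ at 11 of these 76 bases. RPS28A (XV:648804-648879, minus strand) and RPS28B (XII:673259-673334, plus strand) differ at 7. RPL7A (VII:364335-364410, minus strand) and RPL7B (XVI:174627-174702, plus strand) differ at 5, and RPL35A (IV:118442-118517, plus strand) and RPL35B (IV:218292-218367, plus strand) at 1. RPL35 had the highest share of windows found in both copies (78.8%), and RPL7, at 47.3%, was also not distinct, so the split between A and B of these pairs rests on fewer bases. How reads that fit both copies were counted is not given in the sources used here.

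RP genes also differed from other genes in structure. An intron was annotated in 88 of the 132 genes (66.7%), against 4.56% of all annotated genes. The letters ACCCNNACA, a core of the Rap1 recognition sequence, occurred on either strand within 600 bases upstream of the start codon of 56 RP genes (42.4%), against 6.45% of all genes. Examples of the Rap1 letters, in capitals, are shown on the strand of the gene for RPL9A and RPL36B, whose changes are described below, and for RPL41B.
RPL9A: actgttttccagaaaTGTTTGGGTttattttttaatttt
RPL36B: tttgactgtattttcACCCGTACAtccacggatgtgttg
RPL41B: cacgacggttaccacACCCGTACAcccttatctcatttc
They lie on the minus strand at VII:228616-228654 (310 bases upstream of the RPL9A start codon, in reverse orientation), XVI:76530-76568 (314 bases upstream of RPL36B) and IV:222122-222160 (344 bases upstream of RPL41B). A match of letters is a description and does not show that Rap1 binds there.

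Per kilobase of coding length, levels in wild type spanned a wide range. RPL41A, which encodes the very short protein eL41, stood highest at 13125 ± 1159.8 CPM per kb (SD, n = 3), followed by the ubiquitin fusion RPS31 at 9644 ± 1156, RPL41B at 9329 ± 528, RPS12 at 8521 ± 857 and RPL39 at 8104 ± 484 CPM per kb. RPS31, RPL41B, RPS12 and RPL39 lay within or close to each other's spread. The coding part of RPL41A and RPL41B is 78 bases long, so their per-kilobase levels depend strongly on that length. At the low end, RPL18B (855 ± 82.9 CPM per kb), RPL7B (850.0 ± 39.6), RPS14B (722 ± 255) and RPL22B (637 ± 107) overlapped or nearly overlapped in their spread. RPL15B (XIII:509734-510348) stood far below all of them at 71.0 ± 5.22 CPM per kb. The minor copies of strongly unequal pairs therefore made up the low end.

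Across the pairs, the A copy was the more abundant one in wild type in 32 and the B copy in 25. The copies lay within 1.5-fold of each other in 33 pairs and more than 2-fold apart in 14, of which 13 were distinct pairs. The pair RPL15 was the most unequal, with a mean log2(A/B) of 6.26 ± 0.24 in wild type, a 76.4-fold excess of RPL15A, which encodes the large-subunit protein eL15. It was followed by RPS14 (2.84 ± 0.44), RPL18 (2.58 ± 0.09), RPL22 (2.48 ± 0.19), RPS9 (-2.26 ± 0.12, the B copy being the major one) and RPS22 (2.11 ± 0.29). These ratios are log2((A + 1)/(B + 1)) of CPM, without a correction for length. The same copy was the more abundant one in all 6 strain means in 54 of 57 pairs and in all 18 libraries in 53, so deletion of *IOC3* or *YAF9*, or truncation of the HLB domain, rarely exchanged the major and minor copy.

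RP mRNAs took up between 16.0% and 23.3% of the reads of a library that were counted in the genes of the table. Their share was 19.6%, 20.2% and 16.0% in the *ioc3*Δ libraries, 21.1%, 21.5% and 22.7% in *ioc3*Δ*cHLB*, 18.2%, 20.3% and 19.6% in *yaf9*Δ, 23.3%, 23.2% and 18.9% in *ioc3*Δ *yaf9*Δ, 21.4%, 23.2% and 22.4% in *ioc3*Δ*cHLB yaf9*Δ, and 21.0%, 22.7% and 21.0% in wild type. Both single deletions lay below wild type with no overlap of libraries, by 2.97 percentage points in *ioc3*Δ and by 2.20 in *yaf9*Δ, and the double mutants did not. The exact two-sided permutation test of 3 against 3 libraries gave p = 0.1 for each of these 2 differences, the smallest p this design allows. The share of *ioc3*Δ*cHLB yaf9*Δ exceeded that of *yaf9*Δ by 2.96 points (p = 0.1, exact permutation), and that of *ioc3*Δ *yaf9*Δ exceeded *yaf9*Δ by 2.43 points (p = 0.3, exact permutation). Against wild type, *ioc3*Δ*cHLB* differed by 0.197 points (p = 0.6), *ioc3*Δ *yaf9*Δ by 0.225 points (p = 0.8) and *ioc3*Δ*cHLB yaf9*Δ by 0.752 points (p = 0.3) in the same exact permutation test. In bulk RNA, fewer cells of a kind and less RNA per cell cannot be told apart, and a share falls also where other mRNAs rise. The changes described below use CPM, scaled to the effective library size, and are therefore on another scale than these shares. That size was 0.958 to 0.964 times the counted reads in the *yaf9*Δ libraries, and 0.976 to 1.09 times in wild type.

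**Figure D1:**
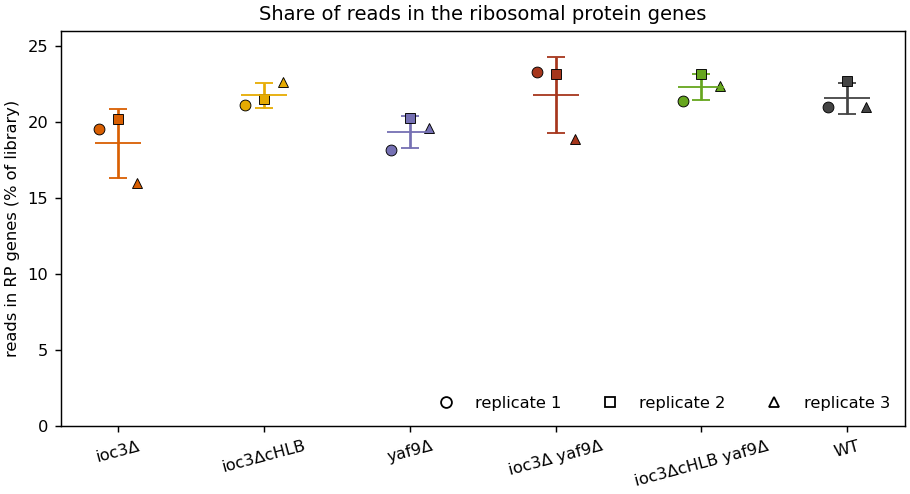
Percent of the reads counted in genes that fell in the 132 RP genes (y axis) in each of the 18 libraries by strain (x axis). Markers give the replicate number, and bars the mean ± SD of the 3 libraries. Replicate 3 of *ioc3*Δ (16.0%) and of *ioc3*Δ *yaf9*Δ (18.9%) lie apart from the other libraries of their strains, and wild type lies between 21.0% and 22.7%.

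Within a strain, the RP genes moved as a block from one culture to the next. Replicate 3 of *ioc3*Δ had the lowest of the 3 values for 120 of the 132 genes, and replicate 3 of *ioc3*Δ *yaf9*Δ for 125. Replicate 1 of *yaf9*Δ was lowest for 130 genes, replicate 1 of *ioc3*Δ*cHLB* for 123, replicate 1 of *ioc3*Δ*cHLB yaf9*Δ for 98 and replicate 3 of wild type for 109. The 132 genes are therefore not independent observations of a strain, and counts of genes below can move together with a single library. What set the level of each culture was not tested.

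RP mRNAs were lower in *ioc3*Δ than in wild type, broadly and by a small amount. Against wild type, 62 of the 132 genes fell at an adjusted p under 0.1 (limma, Benjamini-Hochberg over 5786 genes). This is 47.0% of RP genes, against 12.8% of all genes called lower. None rose, against 15.2% of all genes called higher, and 0 RP genes were higher at an unadjusted p under 0.05 in limma or at the adjusted threshold in edgeR or DESeq2. The fitted change was below 0 for 129 genes, with a median of -0.30 on the log2(CPM + 1) scale, against 0.01 over all genes, and a range of -0.50 to 0.02. None reached 1.5-fold, which 3.11% of all genes did in that direction. The 3 libraries of *ioc3*Δ lay below all 3 of wild type for 94 RP genes (71.2%), against 17.7% of all genes. The 3 genes with a fitted change above 0 were RPL15B, RPL22B and RPS9A, all minor copies of unequal pairs.

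The largest fitted decreases were those of RPL9A, RPL34B, RPL17B and RPS9B. RPL34B (eL34) had 898, 933 and 759.6 CPM in *ioc3*Δ, against 1137, 1256 and 1096 CPM in wild type, a log2 change of -0.43 ± 0.12 (SE, adjusted p = 0.0179). It was called under every alternative tried. RPL9A (uL6) had 1387, 1443 and 967 CPM in *ioc3*Δ, against 1748, 1886 and 1646 CPM in wild type (-0.50 ± 0.17, adjusted p = 0.0516), and lost its call without *ioc3*Δ replicate 3 (adjusted p = 0.244), wild type replicate 1 (adjusted p = 0.104) or wild type replicate 2 (adjusted p = 0.139). Replicate 3 of *ioc3*Δ was the lowest RPL9A library of the series. RPL17B (uL22) had 971, 987 and 769 CPM in *ioc3*Δ, against 1198, 1294 and 1134 CPM in wild type (-0.42 ± 0.12, adjusted p = 0.0225), and lost its call without *ioc3*Δ replicate 3 (adjusted p = 0.115). RPS9B, the more abundant mRNA of the pair that encodes the small-subunit protein uS4, had 2136, 2332 and 1699.9 CPM in *ioc3*Δ. Wild type had 2684, 2919.7 and 2570.4 CPM (-0.42 ± 0.15, adjusted p = 0.0602). The RPS9B call was lost in 4 of 14 alternatives. Among them were the fits without *ioc3*Δ replicate 3 (adjusted p = 0.248), wild type replicate 1 (adjusted p = 0.11) or wild type replicate 2 (adjusted p = 0.163). In all 4 genes the strains did not overlap.

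The median change in *ioc3*Δ was below 0 in each kind of RP gene examined. The decrease was called for 38 of 76 large-subunit genes and 24 of 56 small-subunit genes, with a median of -0.30 in each. Over all genes 12.8% were called lower. Of the 18 genes with no paralog, 3 were called (median -0.29), close to that share, and of the 114 with one, 59 (median -0.31). Genes with an intron gave 49 of 88 (median -0.31) and genes without gave 13 of 44 (median -0.30). Genes with the Rap1 letters gave 32 of 56 and the rest 30 of 76, with a median of -0.30 in each. Differences between these groups were not tested. Both copies were called in 14 pairs, 1 copy in 31 pairs and neither in 12. The count depended on single libraries: leaving out *ioc3*Δ replicate 3 gave 12, wild type replicate 1 gave 25 and wild type replicate 2 gave 19. Without replicate 3 of both *ioc3*Δ strains, an alternative chosen after seeing the data, 22 genes were called and the median was -0.21.

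**Figure D2:**
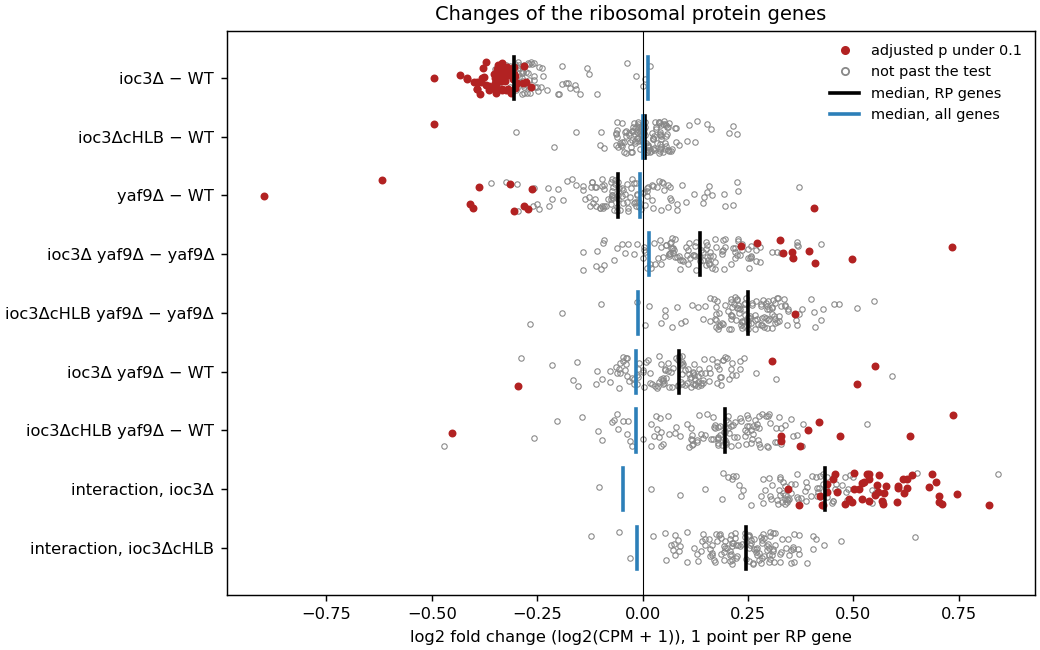
Log2 fold change of each of the 132 RP genes (points, x axis, log2(CPM + 1) scale) in each comparison and interaction (y axis); red points have an adjusted p under 0.1, and bars mark the median of the RP genes (black) and of all genes tested (blue). The RP median lies at -0.30 for *ioc3*Δ against wild type and at 0.43 for the interaction of *ioc3*Δ with *yaf9*Δ, and near 0 for *ioc3*Δ*cHLB* against wild type.

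Truncation of the HLB domain, with Ioc3 otherwise present, gave a median RP change near 0. The median change was 0.01 in *ioc3*Δ*cHLB* against wild type, with 58 genes below 0 and 74 above. Only RPL7B passed the test, and it was lower, 1 of the 2 genes (0.0346% of all tested) called lower in this comparison. RPL7B (XVI:173152-174702) encodes the minor copy of the large-subunit protein uL30, and had 421, 426 and 484 CPM in *ioc3*Δ*cHLB*, against 621, 598 and 656 CPM in wild type. The libraries did not overlap, and the log2 change was -0.49 ± 0.10 (adjusted p = 0.0395). The call was lost without *ioc3*Δ*cHLB* replicate 1 (adjusted p = 0.126), *ioc3*Δ*cHLB* replicate 2 (adjusted p = 0.183), wild type replicate 1 (adjusted p = 0.128) or wild type replicate 3 (adjusted p = 0.192), and in a fit of these 2 strains alone (adjusted p = 0.371). RPL7B also lay below the 3 wild type libraries in each of the other mutants, with 437, 506 and 507 CPM in *ioc3*Δ, 499, 539.6 and 524 CPM in *yaf9*Δ, 533, 523 and 472 CPM in *ioc3*Δ *yaf9*Δ and 409, 494 and 469.6 CPM in the *ioc3*Δ*cHLB yaf9*Δ strain. Within *yaf9*Δ cells, where the libraries of *ioc3*Δ *yaf9*Δ and *yaf9*Δ overlapped, its log2 change was -0.03 ± 0.10 (adjusted p = 0.85).

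Deletion of *YAF9* alone was followed by calls for a few RP genes, with a median near 0. Against wild type 10 RP genes fell (7.58%, against 8.81% of all genes) and 1 rose (0.758%, against 8.56% of all genes), with a median change of -0.06. The 10 were RPS22B, RPS21A, RPS25B, RPL35B, RPL21B, RPL19A, RPS7B, RPS17B, RPL36A and RPL7B, and in no pair were both copies called. RPS22B and RPS21A also reached 1.5-fold, as 3.61% of all genes did downward. The gene that rose was RPL15B. The count of 11 was 2 without wild type replicate 2 or without *yaf9*Δ replicate 1, 3 without *yaf9*Δ replicate 3, 5 without wild type replicate 3 and 6 without *yaf9*Δ replicate 2.

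RPS25B, which encodes eS25, had 381, 469 and 443 CPM in *yaf9*Δ, against 594, 556 and 561 CPM in wild type. It did not overlap, fell by 0.41 ± 0.09 on the log2 scale (adjusted p = 0.0133), and was called under every alternative. RPS21A (eS21) had 642, 715 and 701 CPM in *yaf9*Δ, against 1134, 1089 and 942 CPM in wild type (-0.62 ± 0.18, adjusted p = 0.0428), and lost its call without *yaf9*Δ replicate 1 (adjusted p = 0.146), *yaf9*Δ replicate 3 (adjusted p = 0.105) or wild type replicate 2 (adjusted p = 0.111). RPL35B (uL29, not distinct from its paralog) had 336, 384 and 384 CPM in *yaf9*Δ, against 481, 496 and 479.9 CPM in wild type (-0.40 ± 0.12, adjusted p = 0.047), with the call lost without *yaf9*Δ replicate 1 (adjusted p = 0.185), wild type replicate 2 (adjusted p = 0.12) or wild type replicate 3 (adjusted p = 0.108). RPL15B had 54.7, 60.6 and 59.1 CPM in *yaf9*Δ, against 41.9, 41.7 and 47.4 CPM in wild type (0.41 ± 0.11, adjusted p = 0.0341), and lost its call without *yaf9*Δ replicate 2 (adjusted p = 0.112), *yaf9*Δ replicate 3 (adjusted p = 0.107) or wild type replicate 2 (adjusted p = 0.104). All 4 genes kept *yaf9*Δ and wild type apart in every library.

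In cells without Yaf9, no RP gene was called lower on loss of Ioc3. Against *yaf9*Δ, 0 RP genes fell in *ioc3*Δ *yaf9*Δ, against 12.8% of all genes, also 0 at an unadjusted p under 0.05 in limma and at the adjusted threshold in edgeR or DESeq2. The number that rose was 10 (7.58%, against 9.26% of all genes), and 117 of 132 had a fitted change above 0, with a median of 0.14. The 10 were RPL36A, RPS17B, RPL21B, RPL19A, RPS9A, RPL35B, RPL24B, RPS26B, RPS7B and RPS22B. RPS7B (eS7) had 822, 786 and 628 CPM in *ioc3*Δ *yaf9*Δ, against 503, 533 and 538 CPM in *yaf9*Δ (0.50 ± 0.11, adjusted p = 0.00672), and was called under every alternative. RPS22B was the only one past 1.5-fold (3.53% of all genes rose that far). RPS26B (eS26) had 1616, 1538 and 1093 CPM in *ioc3*Δ *yaf9*Δ, against 1004, 1104 and 1047 CPM in *yaf9*Δ (0.41 ± 0.14, adjusted p = 0.0685), and RPL24B (eL24) had 1462, 1445 and 1029 CPM, against 908, 1054 and 997 CPM in *yaf9*Δ (0.40 ± 0.15, adjusted p = 0.0806). The libraries of RPS26B and RPL24B overlapped. The RPS26B call was lost without *ioc3*Δ *yaf9*Δ replicate 1 (adjusted p = 0.276), *ioc3*Δ *yaf9*Δ replicate 2 (adjusted p = 0.208), *yaf9*Δ replicate 1 (adjusted p = 0.198), *yaf9*Δ replicate 2 (adjusted p = 0.114) or *yaf9*Δ replicate 3 (adjusted p = 0.157). That of RPL24B was lost without *ioc3*Δ *yaf9*Δ replicate 1 (adjusted p = 0.287), *ioc3*Δ *yaf9*Δ replicate 2 (adjusted p = 0.242), *yaf9*Δ replicate 1 (adjusted p = 0.244), *yaf9*Δ replicate 2 (adjusted p = 0.117) or *yaf9*Δ replicate 3 (adjusted p = 0.164). The count of 10 rested on single libraries: it was 39, with a median of 0.24, without *ioc3*Δ *yaf9*Δ replicate 3, 4 without *yaf9*Δ replicate 2, and 1 without any of *ioc3*Δ *yaf9*Δ replicates 1 and 2 and *yaf9*Δ replicates 1 and 3.

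The HLB truncation gave a more even picture in *yaf9*Δ cells. In *ioc3*Δ*cHLB yaf9*Δ against *yaf9*Δ, 128 of 132 genes had a fitted change above 0, with a median of 0.25, and all 3 libraries of the double mutant lay above all 3 of *yaf9*Δ for 90 genes (68.2%, against 15.7% of all genes). Only RPS28B passed the test (0.758%, against 3.66% of all genes). RPS28B (eS28) had 348, 399.5 and 365 CPM in the *ioc3*Δ*cHLB yaf9*Δ strain, against 274, 302 and 288 CPM in *yaf9*Δ (0.36 ± 0.12, adjusted p = 0.0996). Its call was lost in 9 of 14 alternatives. Among them were the fits without *ioc3*Δ*cHLB yaf9*Δ replicate 2 (adjusted p = 0.296), *ioc3*Δ*cHLB yaf9*Δ replicate 3 (adjusted p = 0.191), *yaf9*Δ replicate 1 (adjusted p = 0.294), *yaf9*Δ replicate 2 (adjusted p = 0.172) or *yaf9*Δ replicate 3 (adjusted p = 0.236). The count of 1 was 14 without *ioc3*Δ*cHLB yaf9*Δ replicate 1, the library with the lowest share of RP reads in its strain, and 0 without any other library of these 2 strains. In a fit of these 2 strains alone it was 34.

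The fitted effect of losing Ioc3 on RP genes differed between cells with and without Yaf9. RP genes moved together within a culture, so the counts of genes given here are not counts of independent observations. The interaction term, the change by *ioc3*Δ in *yaf9*Δ cells minus that in cells with *YAF9*, was positive at an adjusted p under 0.1 for 47 RP genes (35.6%, against 5.82% of all genes). It was negative for 0, against 7.17% of all genes, also 0 at an unadjusted p under 0.05 in limma and at the adjusted threshold in edgeR or DESeq2. It was at least 1.5-fold for 16 (12.1%, against 3.27% of all genes). Its median was 0.43 over RP genes and -0.05 over all genes, and 131 of 132 genes were above 0. RPS7B had the largest term among the genes called, 0.82 ± 0.15 (adjusted p = 0.00992), with 524, 582 and 452 CPM in *ioc3*Δ against 619.7, 639 and 687 CPM in wild type, and the values given above in *yaf9*Δ cells. RPL19A (eL19) had 1781, 1683 and 1350.4 CPM in *ioc3*Δ *yaf9*Δ against 1183, 1320.0 and 1297 CPM in *yaf9*Δ, and 1211, 1378 and 1115 CPM in *ioc3*Δ against 1519, 1653 and 1551 CPM in wild type, a term of 0.69 ± 0.16 (adjusted p = 0.0225). Of the 8 genes with the largest called terms, these 2 alone were called under every alternative. In RPS7B and RPL19A alike, *ioc3*Δ lay below wild type and *ioc3*Δ *yaf9*Δ above *yaf9*Δ in every library.

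RPL36B (eL36) showed the same form, with 2391, 2340.4 and 1649 CPM in *ioc3*Δ *yaf9*Δ against 1494, 1778 and 1660.5 CPM in *yaf9*Δ, and 1467, 1633 and 1156 CPM in *ioc3*Δ against 1695, 2071 and 1785 CPM in wild type, but replicate 3 of *ioc3*Δ *yaf9*Δ fell among the *yaf9*Δ libraries. Its term was 0.75 ± 0.21 (adjusted p = 0.0478). Called interaction terms included both copies in 12 pairs, 1 copy in 22 and neither in 23. They were found for 28 of 76 large-subunit and 19 of 56 small-subunit genes, next to 5.82% of all genes. Among genes with no paralog it was 1 of 18, near that share. The counts were 26 of 56 with the Rap1 letters and 21 of 76 without. The count of 47 was 5 without *ioc3*Δ *yaf9*Δ replicate 1 or *yaf9*Δ replicate 1, 6 without *ioc3*Δ replicate 3, 12 without *ioc3*Δ *yaf9*Δ replicate 2 and 14 without *yaf9*Δ replicate 3. Leaving out wild type replicate 2 gave 18, wild type replicate 3 gave 28, wild type replicate 1 gave 29, *yaf9*Δ replicate 2 gave 29 and *ioc3*Δ replicate 1 gave 30. It was 85 without *ioc3*Δ *yaf9*Δ replicate 3. The term for the HLB truncation had a median of 0.25 with 129 genes above 0, and 0 RP genes passed the test in limma, edgeR or DESeq2, with 4 at an unadjusted p under 0.05 in limma. Over all genes 0.0173% were called higher.

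Set directly against wild type, both double mutants had a median RP change above 0. In *ioc3*Δ *yaf9*Δ the median change was 0.09, with 99 genes above 0. Here 3 genes rose (2.27%, against 10.9% of all genes) and RPL7B fell (0.758%, against 12.8% of all genes). In *ioc3*Δ*cHLB yaf9*Δ the median was 0.20, with 116 genes above 0. Here 8 genes rose (6.06%, against 9.13% of all genes), RPS14B and RPS28A among them past 1.5-fold (1.52%, against 4.10% of all genes), and RPL7B fell (0.758%, against 11.0% of all genes). These comparisons share the wild type libraries with those above. The count of 4 in *ioc3*Δ *yaf9*Δ was 12 without its replicate 3, with a median of 0.19, and 2 without its replicate 1, its replicate 2 or wild type replicate 3. The count of 9 in *ioc3*Δ*cHLB yaf9*Δ was 26 without its replicate 1, 2 without its replicate 2, 4 without its replicate 3 and 3 without wild type replicate 3.

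RPS9A (XVI:404950-406044), the minor copy of its pair, had 831, 844 and 821 CPM in *ioc3*Δ *yaf9*Δ, against 515, 608 and 582 CPM in wild type (0.55 ± 0.11, adjusted p = 0.00259), and was called under every alternative. RPL15B had 60.6, 54.6 and 48.1 CPM there (0.31 ± 0.11, adjusted p = 0.0749), a call lost in 5 of 14 alternatives. Among them were the fits without *ioc3*Δ *yaf9*Δ replicate 1 (adjusted p = 0.287), *ioc3*Δ *yaf9*Δ replicate 2 (adjusted p = 0.148), wild type replicate 1 (adjusted p = 0.185) or wild type replicate 2 (adjusted p = 0.19). Both RPS9A and RPL15B lay above all 3 wild type libraries. In *ioc3*Δ *yaf9*Δ, RPL7B fell by 0.30 ± 0.10 (adjusted p = 0.0444), a call lost in 3 of 14 alternatives. Among them were the fits without *ioc3*Δ *yaf9*Δ replicate 3 (adjusted p = 0.134) or wild type replicate 3 (adjusted p = 0.133). In *ioc3*Δ*cHLB yaf9*Δ, RPL7B fell by 0.45 ± 0.10 (adjusted p = 0.00636), and the call was kept under every alternative. RPL41B had 964, 1134 and 933 CPM in the *ioc3*Δ*cHLB yaf9*Δ strain, against 772, 720.3 and 691 CPM in wild type (0.47 ± 0.13, adjusted p = 0.0248), a call lost without *ioc3*Δ*cHLB yaf9*Δ replicate 2 (adjusted p = 0.116). RPL41B and RPL14A lay above wild type in all 3 libraries. RPL14A (eL14) had 1461, 1848 and 1748 CPM, against 1353, 1329 and 1096 CPM in wild type (0.42 ± 0.15, adjusted p = 0.0679), a call lost in 4 of 14 alternatives. Among them were the fits without *ioc3*Δ*cHLB yaf9*Δ replicate 2 (adjusted p = 0.215), *ioc3*Δ*cHLB yaf9*Δ replicate 3 (adjusted p = 0.175) or wild type replicate 3 (adjusted p = 0.238). RPS14B (uS11), whose mRNA is known to be held down by its own protein, had 333, 526 and 514 CPM, against 287, 414 and 203 CPM in wild type (0.63 ± 0.24, adjusted p = 0.092), with overlapping libraries. Its call was lost in 7 of 14 alternatives. Among them were the fits without *ioc3*Δ*cHLB yaf9*Δ replicate 2 (adjusted p = 0.264), *ioc3*Δ*cHLB yaf9*Δ replicate 3 (adjusted p = 0.247), wild type replicate 1 (adjusted p = 0.158) or wild type replicate 3 (adjusted p = 0.361).

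The ratio between the paralogs of a pair shifted with *YAF9* in 33 of 57 pairs at an unadjusted exact p under 0.05. Scaling of a library cancels in this ratio, and so does a rise or fall by the same factor in both copies. A change of RP genes in one culture that differs between the copies does enter it. The A/B ratio was compared between *yaf9*Δ and *YAF9* strains within each of the 3 IOC3 alleles, by an exact two-sided stratified permutation test over 8000 regroupings of libraries. Of 57 pairs tested, 33 (57.9%) had an unadjusted p under 0.05, 27 of them among the 45 distinct pairs. The smallest p the test allows, 0.00025, was reached by 8 pairs: RPL16, RPL21, RPL23, RPL35, RPL40, RPS16, RPS22 and RPS28. Without any 1 library, 25 of the 33 kept a p under 0.05, and the number of pairs lay between 28 and 38. In 29 of the 33 the shift had the same sign in all 3 IOC3 alleles. Most shifts were small, with a median size of 0.12 on the log2 scale over all pairs, against a median SD within strains of 0.10. Ratios between other genes were not tested, so the share of shifted pairs is not shown to be particular to RP genes. Over all 5786 genes tested singly, 1515 had an unadjusted p under 0.05 in limma for *yaf9*Δ against wild type.

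The direction of these shifts was looked up after the values were seen. In 28 of the 33 pairs the copies moved further apart, the copy that was minor in wild type losing share, and in 5 (RPL15, RPL21, RPS9, RPS14 and RPS30) they moved closer or crossed. Over all 57 pairs the counts were 44 and 13. The A copy gained share in 19 of the 33 and the B copy in 14. For deletion of *IOC3*, of 13 pairs with p under 0.05, 12 moved closer together and 1 further apart, and over all 57 pairs 34 moved closer and 23 further apart. The 2 tests share the *ioc3*Δ *yaf9*Δ, *yaf9*Δ, *ioc3*Δ and wild type libraries, and the difference between them was not tested. The wild type ratio sets which copy counts as minor and also enters both shifts.

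**Figure D3:**
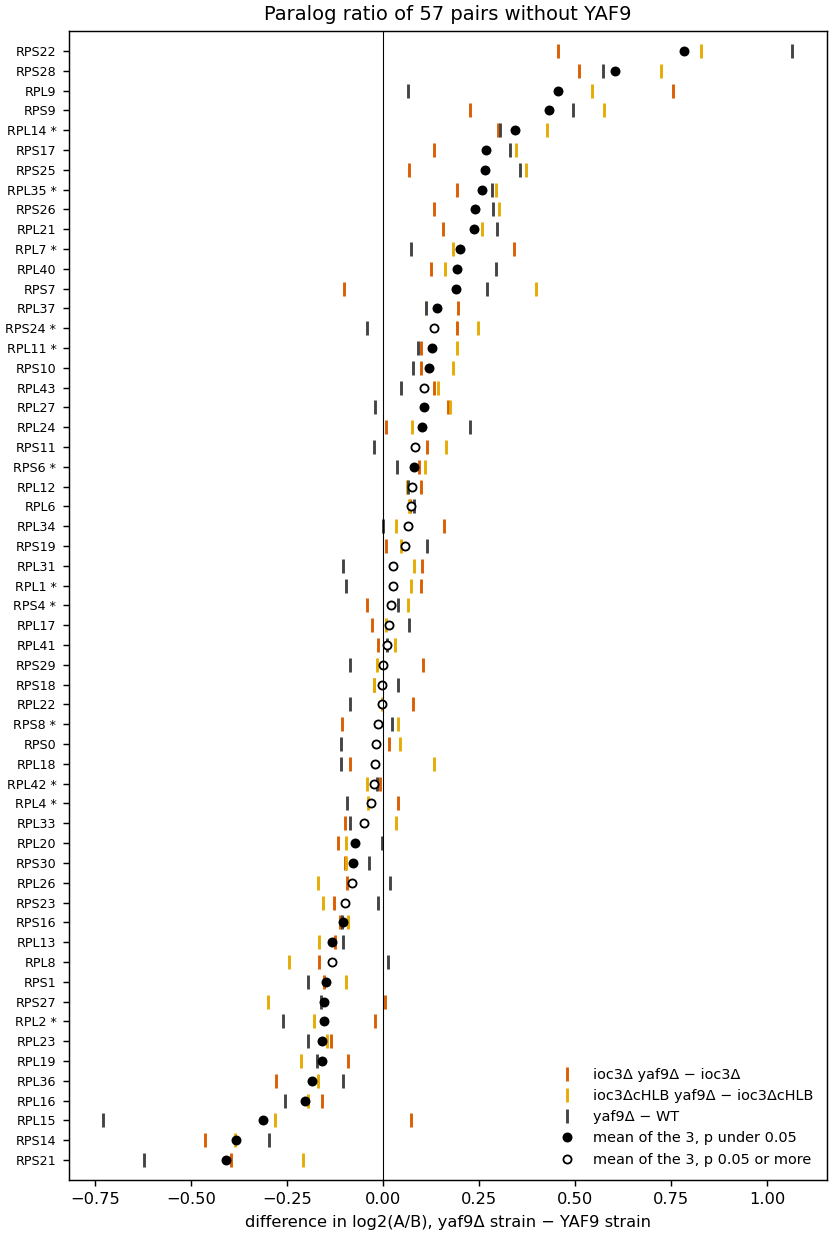
Effect of *YAF9* deletion on log2(A/B) (x axis) for each of the 57 pairs (y axis, sorted), as the mean over the 3 IOC3 alleles (circle, filled where the exact p is under 0.05) with the difference in each allele as a tick; an asterisk marks pairs that are not distinct. RPS22 (0.78) and RPS28 (0.60) lie farthest to the right and RPS21 (-0.41) and RPS14 (-0.38) farthest to the left.

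RPS22 had the largest shift. RPS22A (X:74910-75302) and RPS22B (XII:856442-857317) encode the small-subunit protein uS8, and unspliced RPS22B mRNA is a known substrate of RNA decay. RPS22B had 202, 249.8 and 227 CPM in *yaf9*Δ, against 397, 514 and 366 CPM in wild type, and all 3 *yaf9*Δ libraries lay below. It fell by 0.90 ± 0.27 on the log2 scale (adjusted p = 0.0439), a call lost without *yaf9*Δ replicate 1 (adjusted p = 0.151), *yaf9*Δ replicate 3 (adjusted p = 0.114) or wild type replicate 2 (adjusted p = 0.148). RPS22A had 1907, 2156 and 2079 CPM in *yaf9*Δ, against 2083, 1796 and 1622 CPM in wild type (0.16 ± 0.15, adjusted p = 0.524). RPS22A made up 90.1 ± 0.41% of the pair's CPM in *yaf9*Δ, against 81.1 ± 3.16% in wild type (SD, n = 3), a 9.04-fold excess over RPS22B against 4.32-fold. The ratio shifted by 0.46 in *ioc3*Δ, by 0.83 in *ioc3*Δ*cHLB* and by 1.06 in cells with full-length Ioc3, with a mean of 0.78 (exact p = 0.00025). It was between 0.69 and 0.84 without any 1 library.

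Loss of Ioc3 moved RPS22 the other way. RPS22B had 452, 419 and 281 CPM in *ioc3*Δ *yaf9*Δ, above all 3 *yaf9*Δ libraries by 0.74 ± 0.27 on the log2 scale (adjusted p = 0.0793), a call lost without *ioc3*Δ *yaf9*Δ replicate 1 (adjusted p = 0.268), *ioc3*Δ *yaf9*Δ replicate 2 (adjusted p = 0.201), *yaf9*Δ replicate 1 (adjusted p = 0.224), *yaf9*Δ replicate 2 (adjusted p = 0.122) or *yaf9*Δ replicate 3 (adjusted p = 0.166). RPS22A made up 83.8 ± 1.55% of the pair in *ioc3*Δ *yaf9*Δ, and 79.0 ± 2.90% in *ioc3*Δ. The effect of *IOC3* deletion on the ratio was -0.80 in *yaf9*Δ cells and -0.20 in cells with *YAF9* (mean -0.50, exact p = 0.025), with p at most 0.04 without any 1 library. In *ioc3*Δ*cHLB yaf9*Δ, RPS22B had 186, 385 and 392 CPM, and replicate 1 stood far below the other 2 libraries. RPS22A itself was highest there, at 2124, 2654 and 2434 CPM, all above wild type (0.39 ± 0.15, adjusted p = 0.0891).

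RPS28 shifted as steadily. RPS28A (XV:648804-649007) and RPS28B (XII:673131-673334) encode eS28, whose RPS28B copy is known to limit its own mRNA. RPS28A had 1395, 1506 and 1460.5 CPM in *yaf9*Δ, against 1202, 1204 and 979 CPM in wild type, all 3 higher (0.37 ± 0.16, adjusted p = 0.148, which missed the threshold). It rose in *ioc3*Δ*cHLB yaf9*Δ to 1627, 2044 and 1970.4 CPM, 0.74 ± 0.16 above wild type on the log2 scale (adjusted p = 0.00636, kept under every alternative). In *ioc3*Δ *yaf9*Δ it had 1757, 1693 and 1375 CPM (0.51 ± 0.16, adjusted p = 0.0347), a call lost without *ioc3*Δ *yaf9*Δ replicate 1 (adjusted p = 0.137), *ioc3*Δ *yaf9*Δ replicate 2 (adjusted p = 0.105) or wild type replicate 3 (adjusted p = 0.133). RPS28B stayed between 264.7 and 426 CPM in all 18 libraries. RPS28A made up 83.5 ± 0.172% of the pair in *yaf9*Δ, 82.0 ± 2.25% in *ioc3*Δ *yaf9*Δ and 83.5 ± 1.01% with the HLB truncation and *yaf9*Δ, against 76.3 ± 0.778% in *ioc3*Δ, 75.3 ± 2.98% in *ioc3*Δ*cHLB* and 77.2 ± 1.36% in wild type. In this share the 9 libraries without Yaf9 did not overlap with the 9 that have it. The shift was 0.51, 0.72 and 0.57 in *ioc3*Δ, *ioc3*Δ*cHLB* and full-length IOC3 cells (mean 0.60, exact p = 0.00025). In RPS22, by contrast, it was the minor copy that was called lower in *yaf9*Δ.

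**Figure D4:**
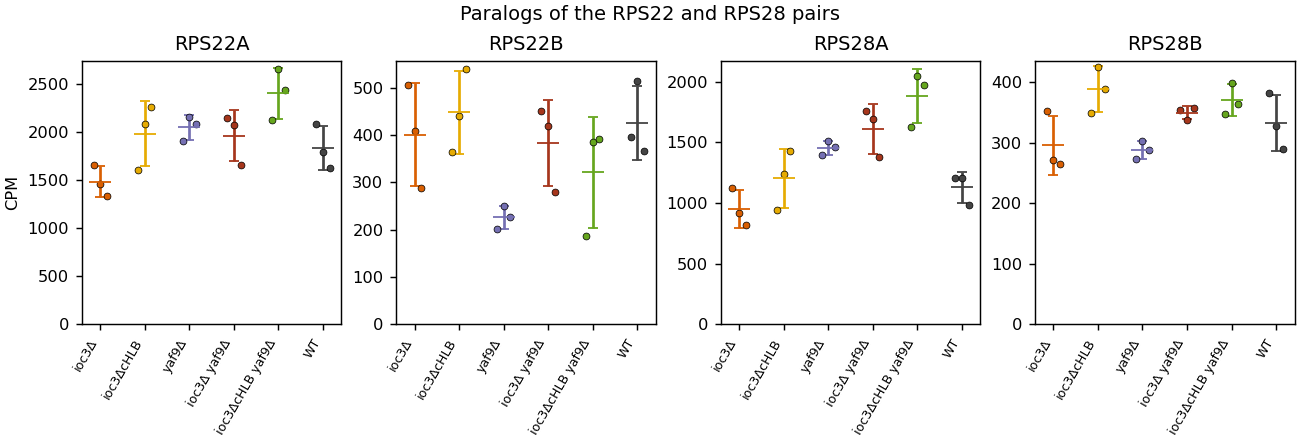
CPM (y axis) of RPS22A, RPS22B, RPS28A and RPS28B in each library by strain (x axis), with the mean ± SD of 3 libraries. RPS22B is lowest in *yaf9*Δ and in replicate 1 of *ioc3*Δ*cHLB yaf9*Δ, and the strain means of RPS28A are higher in the 3 strains without Yaf9 than in the 3 with it.

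Other pairs with a wide range of ratios each had their own pattern. In RPS21, RPS21A lost to RPS21B without Yaf9, with a mean log2(A/B) of -0.72 ± 0.06 in *yaf9*Δ, against -0.10 ± 0.11 in wild type (effect of *YAF9* -0.41 over the 3 alleles, exact p = 0.00175). In RPS9 the minor A copy gained in strains without Yaf9, by 0.43 (exact p = 0.001), and with loss of Ioc3, by 0.30 (exact p = 0.02). The second of these lost its p under 0.05 without wild type replicate 1 or 2 or *yaf9*Δ replicate 3, with p up to 0.055. The ratio was -1.60 ± 0.26 in *ioc3*Δ *yaf9*Δ, against -2.26 ± 0.12 in wild type. In RPS14 the major A copy lost share without Yaf9 (-0.38, exact p = 0.004). In RPL14, RPL14A gained (0.34, exact p = 0.0005). RPL9A gained on RPL9B by 0.45 on average (exact p = 0.00825), but by 0.06 in cells with full-length Ioc3 and by 0.75 in *ioc3*Δ.

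RPL15, the most unequal pair, narrowed in *yaf9*Δ, where RPL15A had 46.1 times the CPM of RPL15B, against 76.4 times in wild type. Its shift with *YAF9* was -0.31 (exact p = 0.0163), made up of -0.73 in cells with full-length Ioc3, -0.28 in *ioc3*Δ*cHLB* and 0.07 in *ioc3*Δ. At the other end, RPL22 (effect -0.00, exact p = 0.947) and RPL18 (effect -0.02, exact p = 0.768) shifted by less than the spread of their libraries. A p above 0.05 does not show that they did not change.

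The tests for the IOC3 alleles used 12 libraries in 2 strata, so their counts cannot be set against that for *YAF9*, and a difference in the number of shifted pairs was not tested. For *IOC3* deletion, compared within *yaf9*Δ and *YAF9* cells over 400 regroupings (smallest p 0.005), 13 of 57 pairs (22.8%) had p under 0.05, 10 of them distinct, with a median size of 0.08 over all pairs. RPL16 (0.14), RPS1 (0.15) and RPL42 (0.13, not distinct) reached the smallest exact p of 0.005. RPL16, RPL34, RPL42, RPS1 and RPS22 kept p under 0.05 without any 1 library. RPL22, whose large-subunit protein eL22 limits splicing of its own paralog's mRNA, shifted by -0.25 (exact p = 0.015), which was lost without *ioc3*Δ replicate 3 or *yaf9*Δ replicate 2 or 3, with p up to 0.065. For the HLB truncation, 5 pairs (8.77%) had p under 0.05, 3 of them distinct, with a median size of 0.06. That count was 19 without wild type replicate 2, 12 without *ioc3*Δ*cHLB yaf9*Δ replicate 1, and 3 without wild type replicate 1 or any 1 of the *yaf9*Δ libraries.

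RPL7 stood out among the pairs for the HLB truncation. RPL7A had 1771, 1989 and 2262 CPM in *ioc3*Δ*cHLB*, against 1931, 2097 and 1799 CPM in wild type, with overlapping libraries, while RPL7B was lower as described above. Mean log2(A/B) was 2.17 ± 0.09 in *ioc3*Δ*cHLB*, against 1.63 ± 0.18 in wild type, and 2.35 ± 0.04 in *ioc3*Δ*cHLB yaf9*Δ, against 1.71 ± 0.01 in *yaf9*Δ. The effect was 0.54 in *YAF9* cells and 0.65 in *yaf9*Δ cells (mean 0.59, exact p = 0.005, the smallest the test allows), and p was 0.005 without any 1 library. In *ioc3*Δ the ratio was 1.71 ± 0.35, close to wild type. RPL7A and RPL7B share 47.3% of their read windows, so the split between them carries that limit. RPL15 also shifted with the HLB truncation (0.41, exact p = 0.015).

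**Figure D5:**
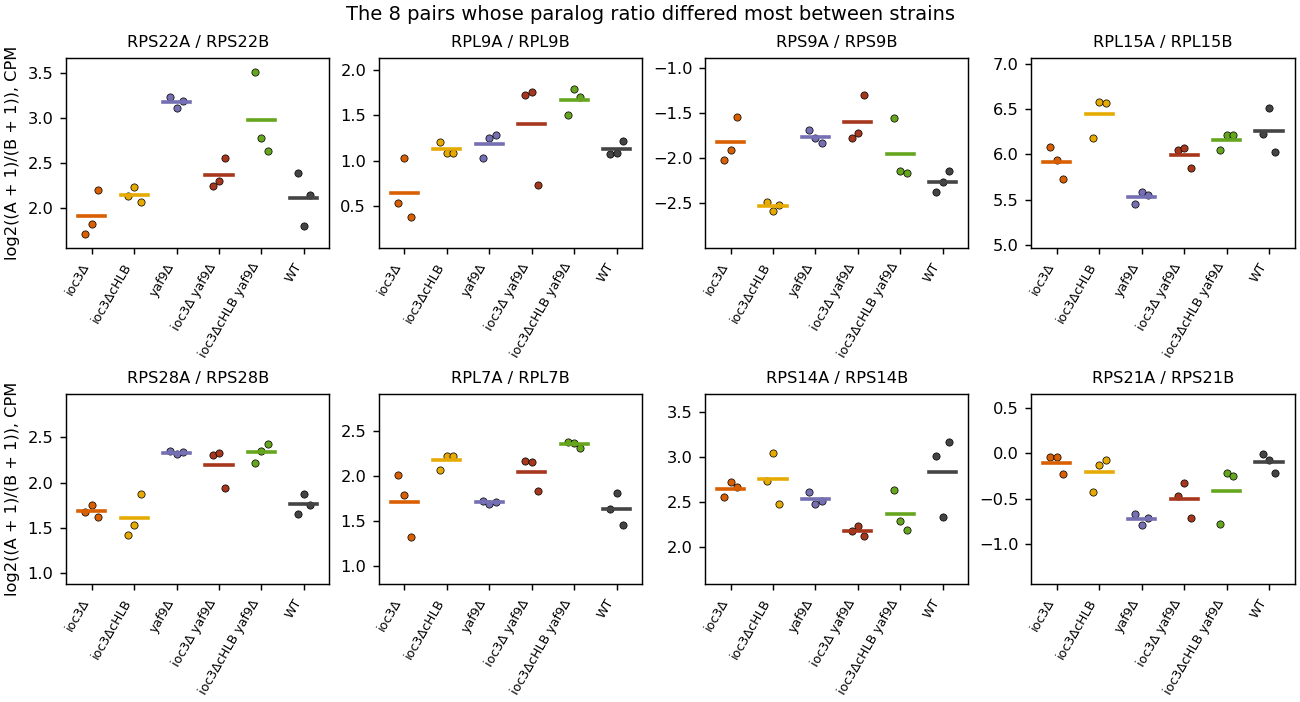
Log2(A/B) (y axis) in each of the 18 libraries by strain (x axis) for the 8 pairs with the widest range of strain means, with a line at each strain mean. RPS22 and RPS28 lie higher in *yaf9*Δ than in wild type, RPL15 lies lower, and RPL7 lies higher in both strains with the HLB truncation than in wild type and *yaf9*Δ.

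The ubiquitin fusion genes and the genes known for feedback on their own mRNA were followed whatever they did. RPL40A and RPL40B encode ubiquitin joined to eL40, and RPS31 encodes ubiquitin joined to eS31. RPS31 had 3558 ± 641 CPM in *ioc3*Δ, 4097 ± 445 CPM in *yaf9*Δ and 4846 ± 969 CPM in *ioc3*Δ *yaf9*Δ, against 4427 ± 530.4 CPM in wild type (SD, n = 3), with adjusted p of 0.215, 0.75 and 0.716 against wild type. RPL40 shifted toward its A copy without Yaf9 (0.19, exact p = 0.00025) and toward B with loss of Ioc3 (-0.14, exact p = 0.02, which was 0.05 without *yaf9*Δ replicate 1). RPL30, whose protein eL30 binds its own transcript and blocks splicing, had 1928 ± 264 CPM in *ioc3*Δ, 2396 ± 136 CPM in *yaf9*Δ and 2419 ± 330.2 CPM in *ioc3*Δ *yaf9*Δ, against 2325 ± 215 CPM in wild type. Its adjusted p against wild type was 0.254, 0.897 and 0.871 in that order of strains. RPL2A and RPL2B, a pair that is not distinct, differed from wild type in *ioc3*Δ by -0.35 ± 0.12 (adjusted p = 0.0542) and -0.25 ± 0.15 (adjusted p = 0.257) on the log2 scale.

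Genes that serve the ribosomal proteins were read from lists chosen with earlier results of these data known. Of 9 chaperones and importers of RPs, 7 fell in *ioc3*Δ against wild type, with a median of -0.36, next to 12.8% of all genes called lower. The largest decreases were those of RRB1 (-0.57 ± 0.17, adjusted p = 0.0305), the chaperone of uL3, ACL4 (-0.43 ± 0.11, adjusted p = 0.0117), the chaperone of uL4, and KAP123 (-0.43 ± 0.14, adjusted p = 0.0414), an importer. In the interaction of *ioc3*Δ with *yaf9*Δ, 4 of the 9 were higher (ACL4, TSR2, BCP1 and TSR4), next to 5.82% of all genes. In *yaf9*Δ against wild type 0 of the 9 were called, also 0 at an unadjusted p under 0.05 in limma. Of all genes, 8.81% were called lower and 8.56% higher there.

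In the strain comparisons given next, regulators of RP genes were called lower at rates near those of all genes. Of 20, 2 were lower in *ioc3*Δ against wild type, next to 12.8% of all genes: RAP1 (-0.32 ± 0.12, adjusted p = 0.0774) and TOD6, a repressor of ribosome biogenesis genes (-0.78 ± 0.31, adjusted p = 0.0826). In *yaf9*Δ against wild type FHL1 (-0.41 ± 0.13, adjusted p = 0.0464) and the kinase gene TOR1 (-0.25 ± 0.09, adjusted p = 0.0821) were lower, 2 of 20 next to 8.81% of all genes. Called higher were 0 of 20 in *ioc3*Δ (15.2% of all genes) and 0 of 20 in *yaf9*Δ (8.56% of all genes), each against wild type. The interaction of *ioc3*Δ with *yaf9*Δ was called for 0 of 20, with 1 at an unadjusted p under 0.05 in limma. Of all genes, 5.82% had a called positive term and 7.17% a called negative one. In *ioc3*Δ *yaf9*Δ against *yaf9*Δ, where most RP genes had a fitted change above 0, the coactivator gene IFH1 (-0.58 ± 0.20, adjusted p = 0.0705), ABF1 and SCH9 were lower, 3 of 20 next to 12.8% of all genes, and MRS6 was higher, 1 of 20 next to 9.26%. Of 9 ribosome-bound factors, 4 had a positive interaction term, next to 5.82% of all genes, with ZUO1, a ribosome-associated chaperone, at 0.93 ± 0.21 (adjusted p = 0.0212). Of 17 translation factors, 4 did (TIF11, PRT1, RPG1 and EFB1), next to the same 5.82%. Of 5 stalk protein genes, 4 rose in *ioc3*Δ*cHLB yaf9*Δ against wild type, from RPP2A (0.35 ± 0.13) to RPP2B (0.53 ± 0.16), next to 9.13% of all genes called higher. In *ioc3*Δ against wild type 0 of the 5 were called, with 1 at an unadjusted p under 0.05 in limma. Of all genes, 12.8% were called lower and 15.2% higher there.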

How the data were processed

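RNA from 18 cultures, 3 of each of 6 strains, had been sequenced with a strand-specific 76-base paired-end protocol. According to the submitters' processing notes, TopHat2 (2.0.10) with Bowtie2 (2.0) placed the reads on sacCer3 and HTSeq counted them per gene. The authors deposited a signal per gene that edgeR (3.6.2) had produced, namely CPM per effective library size. The study's text also mentions FPKM, but the deposited values behaved as CPM. Settings of the counting step, strand and multi-mapping included, are not given in the sources used here. In every library 100% of the deposited values were whole multiples of 1 read within 0.01 reads, which gave read numbers (5145170 to 10192972 per library, 1 read being worth 0.0854 to 0.201 CPM, and 180 reads for the RP gene with the fewest in any library). In the table of 5830 genes, 4 further lines were empty and are not analysed here. Systematic names matched the reference annotation (R64, the same build) for 5634 genes, including all 132 RP genes. Its gene models hold coding bounds only.

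Differences in log2(CPM + 1) were tested by limma-trend (limma 3.58.1 under R 4.3.3). A gene entered when 3 or more libraries held 1 CPM or more of it, as 5786 genes did, all 132 RP genes among them. One fit held the 18 libraries with a mean per strain, and p-values were adjusted by Benjamini-Hochberg over all genes of a comparison. Genes were called at an adjusted p under 0.1, and also at 1.5-fold where stated. Fold changes on this scale understate changes of weakly expressed genes. Ratios of paralogs were log2((A + 1)/(B + 1)) of CPM and were tested per pair by exact two-sided permutation of libraries within strata, unadjusted over 57 pairs. Read shares were tested by exact permutation of 3 against 3. On simulated data for *ioc3*Δ against wild type the limma steps were checked for recovery of known changes. Genes were drawn independently there, so this check does not cover RP genes that move together within a culture.

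RP genes, lists, tests and the naming rule were chosen with earlier results of these data known. Named per comparison were genes called at 1.5-fold, up to 8 each way by size, filled to 4 with genes called by p alone. The 5 highest and 5 lowest genes per kilobase, the 6 most unequal pairs, the 8 pairs of widest range, ubiquitin fusions, RPL41 genes and genes known for feedback were added, and of each other list up to 3 called genes. Pairs named for reaching the smallest p or for keeping their p were chosen after their values were seen.

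Labels number the replicates of each strain 1 to 3. Deviations of equally numbered libraries from their strain means correlated above 0.1 in all 3 numbers for 2 of 15 strain pairs, *ioc3*Δ with wild type (0.206, 0.212 and 0.110) and *ioc3*Δ *yaf9*Δ with *ioc3*Δ (0.230, 0.602 and 0.572). Results were recomputed with each library left out, with the replicate number as a block, with the compared strains alone, at an adjusted p under 0.05, with median-of-ratios factors, without the filter and with pseudocounts of 0.25 or 5. Recovered read numbers were also tested by DESeq2 (1.42.0) and by the quasi-likelihood method of edgeR (4.0.16). Leaving out replicate 3 of both *ioc3*Δ strains together was chosen after seeing the data. No 2 replicates agreed within counting noise (chi-square per degree of freedom 2.80 to 58.0).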

Additional observations from a re-analysis of the deposited data

Results flagged for a closer look

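For 8 RP genes the change with *ioc3*Δ differed between *yaf9*Δ cells and cells with *YAF9* by at least 1.5-fold, by a test of the difference itself (the interaction term in limma, adjusted over 5786 genes, n = 3 libraries per strain). The log2 differences were 0.82 for RPS7B (adjusted p = 0.00992), 0.75 for RPL36B (adjusted p = 0.0478), 0.71 for RPL9A (adjusted p = 0.085), 0.70 for RPL24B (adjusted p = 0.0536), 0.70 for RPS26B (adjusted p = 0.0502), 0.70 for RPL15A (adjusted p = 0.0608), 0.69 for RPL19A (adjusted p = 0.0225) and 0.68 for RPL8B (adjusted p = 0.0985). They are the 8 largest of 16 such genes. RPS7B and RPL19A passed the test in all 20 alternatives. The others did not pass in 4 (RPL36B), 10 (RPL9A), 5 (RPL24B), 5 (RPS26B), 6 (RPL15A) and 10 (RPL8B) of 20, with an adjusted p of up to 0.139, 0.226, 0.153, 0.150, 0.166 and 0.252 in the same order. In these 8 genes replicate 3 of *ioc3*Δ *yaf9*Δ and of *ioc3*Δ, the libraries with the lowest RP share in their strains, enter the term with opposite signs.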

How the results depend on the processing

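No called change of an RP gene chosen by the naming rule reversed its direction under the alternatives run. These genes were named for the size of their called changes, and the alternatives reused the same libraries, so a reversal was unlikely beforehand. Without 1 library the median for *ioc3*Δ*cHLB* against wild type (0.01) lay between -0.07 and 0.09, and its read-share difference and that of *ioc3*Δ *yaf9*Δ against wild type also changed sign. Counts of RP genes called moved by over 1.5 times under these settings. For *ioc3*Δ against wild type (62) the count was 20 with only the compared strains, 28 at an adjusted p under 0.05 and 22 without replicate 3 of both *ioc3*Δ strains. For *ioc3*Δ*cHLB* against wild type (1) it was 0 with only the compared strains, and for *yaf9*Δ against wild type (11) it was 6 at p under 0.05. For *ioc3*Δ *yaf9*Δ against *yaf9*Δ (10) it was 23 with DESeq2, 2 at p under 0.05 and 48 without the 2 libraries, and against wild type (4) it was 7 with DESeq2, 2 with only the compared strains and 19 without the 2 libraries. For *ioc3*Δ*cHLB yaf9*Δ against *yaf9*Δ (1) it was 8 with DESeq2, 3 with edgeR, 34 with only the compared strains and 0 at p under 0.05, with no filter or with a pseudocount of 5, and against wild type (9) it was 23 with DESeq2, 4 at p under 0.05 and 4 with only the compared strains. The interaction of *ioc3*Δ with *yaf9*Δ (47) gave 74 with DESeq2 and 14 at p under 0.05. Pairs with p under 0.05 for the HLB truncation (5) were 3 among distinct pairs. The cause of these moves was not tested, beyond fewer genes passing at a stricter p and fewer pairs or samples entering.

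Leaving out 1 library at a time, the counts lay between 12 and 57 (*ioc3*Δ), 0 and 1 (*ioc3*Δ*cHLB*) and 2 and 8 (*yaf9*Δ) against wild type, 1 and 39 and 0 and 14 for the *ioc3*Δ and *ioc3*Δ*cHLB* double mutants against *yaf9*Δ, 2 and 12 and 2 and 26 for the same against wild type, 5 and 85 for the *ioc3*Δ interaction, and 28 and 38 (*YAF9*), 9 and 16 (*IOC3* deletion) and 3 and 19 (HLB truncation) for pairs. Differences in read share lay between -3.78 and -1.68, -0.25 and 0.77, and -2.66 and -1.62 percentage points for the single mutants in the order above, 1.68 and 3.87 and 2.37 and 3.41 for the double mutants against *yaf9*Δ, and -0.53 and 1.66 and 0.34 and 1.33 against wild type. Without the 57 most expressed other genes in the denominator, the share of *ioc3*Δ*cHLB yaf9*Δ exceeded that of *yaf9*Δ by 4.26 points and that of wild type by 2.40 points. A smaller denominator raises every share, so these points are not on the scale of those above. The other comparisons under this setting are not given here.

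With the replicate number as a block, 53 RP genes were called for *ioc3*Δ against wild type and 38 for the *ioc3*Δ interaction, and the paired fit moved a count by over 1.5 times only for *ioc3*Δ*cHLB yaf9*Δ against *yaf9*Δ (0). It ended the call of RPS14B (adjusted p = 0.110). The 3 cultures per strain, which differ in the level of nearly all RP genes at once, limit these comparisons, while every RP gene had at least 180 reads in every library.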
